A study of Mus musculus with 2 samples.

Results

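Ephrins and Eph receptors were described gene by gene over the cell classes of juvenile long bone, taking as members Efnb1, Efnb2, Efna1, Efna5, Ephb4, Ephb2, Epha2, Epha3 and Epha4. These are 9 of the 28380 genes in the 2 expression tables, and 13 further genes of the family were counted as background to them. All 9 were found in both tables by symbol. Bone cells depleted of blood lineages were profiled by single-cell RNA sequencing (scRNA-seq), with 1 library for Control mice of genotype Dach1OE +/f and 1 library for Dach1OE mice of genotype Apj CreERT2 - Dach1OE +/f. Both groups were C57BL/6 mice at postnatal day 30, carried the Rosa26 Dach1 transgene and received tamoxifen at postnatal days 1 and 2. In the Dach1OE mice the transgene was switched on by an inducible Cre driven by Aplnr (Apj), a gene of capillary endothelial cells (ECs), and the Controls were littermates without Cre. Femur and tibia of 2 mice, male and female, were pooled per library.

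With 1 library per group no test between the groups was possible, so differences are given as log2 ratios with 95% intervals that cover counting error only. Levels are unique molecular identifiers (UMIs, counted RNA molecules) of a gene summed over the cells of a class, scaled to counts per 1000000 UMIs of that class (CPM). Levels were compared between classes and libraries for each gene and not between genes. A gene was called different at 1.5-fold or more with at least 20 UMIs over both sums. After the study's limits on detected genes and mitochondrial UMIs, 26466 Control and 29317 Dach1OE cells were kept, with a median of 3794 and 4055 UMIs. Markers assigned 7291 Control and 8231 Dach1OE cells to ECs. All 8 EC markers were higher there than elsewhere, which follows from the gate, since they set it. Dach1 itself was at 4.29 CPM in Control ECs and 210.5 CPM in Dach1OE ECs. A total of 1049 cell indices occurred in both tables, and leaving them out moved none of the 9 members' ratios over all ECs, nor those of Efnb2 in aECs, by more than their interval.

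Ephrins are ligands held on the cell surface, the A class (Efna) by a lipid anchor and the B class (Efnb) by a transmembrane segment, and Eph receptors are receptor tyrosine kinases of neighbouring cells. Because both partners sit on membranes, signals can pass into the receptor cell and into the ligand cell as well. In blood vessels Efnb2 is a marker of arterial endothelium and EphB4, its receptor, of venous endothelium, while EphB receptors and ephrin-B ligands also act between cells of the osteoblast and osteoclast lineages in bone.

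The genes lie on 8 chromosomes of GRCm38 (GENCODE vM21, whole gene bodies). Among the ligands, Efnb1 lies at chrX:99136130-99148991 on the + strand and Efnb2 at chr8:8617434-8661242 on the - strand. Efna1 lies at chr3:89271733-89281142 and Efna5 at chr17:62604184-62881317, both on the - strand. Among the receptors, Ephb4 lies at chr5:137350109-137378669 on the + strand, and Ephb2 at chr4:136647539-136835988 on the - strand. Epha2 lies at chr4:141301240-141329384 on the + strand, Epha3 at chr16:63543534-63864175 and Epha4 at chr1:77367185-77515088, the last 2 on the - strand. Intronic reads were counted. On the same strand, 3 unclassified transcripts lie inside Efnb2, the small RNA gene Gm22769 inside Epha3 and Mir6352 inside Epha4, and how reads there were divided is not given in the sources used here. Zan overlaps the end of Ephb4 on the opposite strand, and the sources do not say if strand was used in counting.

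The 250 bases before the transcription start are shown for the 2 ephrin-B ligands and for Ephb4 and Epha4, since the levels of Efnb1, Efnb2 and Epha4 differed most clearly with library or EC subtype, and Ephb4 is the receptor paired with Efnb2. The sequences are those of RefSeq for GRCm38.p6, written 5′ to 3′ on the strand of the gene, and all 9 members had a window, Efna1 having 2. Capitals mark CCAAT (the CCAAT box) or TGGGAA (the core bound by the Notch effector RBPJ) on either strand, so that CCAAT on the other strand appears as ATTGG. The windows are chrX:99135811-99136060 (+) for Efnb1, chr8:8661243-8661492 (-) for Efnb2, chr5:137349859-137350108 (+) for Ephb4 and chr1:77515089-77515338 (-) for Epha4.
Efnb1: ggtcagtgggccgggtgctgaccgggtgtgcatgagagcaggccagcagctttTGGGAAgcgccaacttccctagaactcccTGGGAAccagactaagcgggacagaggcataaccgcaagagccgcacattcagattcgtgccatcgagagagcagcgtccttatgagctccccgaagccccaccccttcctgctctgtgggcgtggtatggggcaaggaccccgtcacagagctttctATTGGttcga
Efnb2: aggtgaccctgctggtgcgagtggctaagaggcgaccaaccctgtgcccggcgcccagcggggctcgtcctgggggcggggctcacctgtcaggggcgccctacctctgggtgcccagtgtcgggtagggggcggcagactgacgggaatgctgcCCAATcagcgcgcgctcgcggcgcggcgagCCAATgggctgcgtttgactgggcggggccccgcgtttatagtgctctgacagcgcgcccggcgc
Ephb4: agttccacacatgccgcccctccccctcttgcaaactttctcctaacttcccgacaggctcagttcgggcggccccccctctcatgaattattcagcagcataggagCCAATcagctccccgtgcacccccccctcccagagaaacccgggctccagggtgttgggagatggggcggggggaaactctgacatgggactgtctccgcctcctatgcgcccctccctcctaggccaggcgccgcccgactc
Epha4: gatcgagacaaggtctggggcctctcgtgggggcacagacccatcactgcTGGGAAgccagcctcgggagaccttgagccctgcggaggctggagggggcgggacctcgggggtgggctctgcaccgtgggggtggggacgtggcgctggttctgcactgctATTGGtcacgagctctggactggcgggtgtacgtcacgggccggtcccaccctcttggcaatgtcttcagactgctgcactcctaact

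CCAAT was found in all 4 windows shown and in that of Ephb2, that is in 5 of the 9 genes, against 33.8% of 32851 windows of the same length. Efnb2 held it at 2 places, ending 91 and 61 bases before the start. TGGGAA was found in Efnb1, ending 192 and 163 bases before the start, and in Epha4, ending 195 bases before it, and 21.6% of all windows held it. Of 2 further motifs searched on both strands, which are not in capitals above, GGGCGG (the GC box) was found in 6 of the 9 genes (Efnb2, Efna1, Efna5, Ephb4, Epha2 and Epha4) and in 32.7% of all windows, and AACAAT (a core bound by SOX factors) in 0 of the 9 and in 9.42%. The motifs do not overlap each other in these windows, and a match is a run of letters, not a bound site.

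Each of the 9 genes had its own pattern over the classes, and for Efnb2, Efna1, Ephb4 and Epha2 the ECs were the class with the highest level in both libraries (for Epha2 in Control the interval overlapped that of the pericytes), among 11 classes of at least 178 cells (Schwann and muscle cells, at 21 to 74 cells, are left aside). Efnb1 and Efna5 were highest in mesenchymal stromal cells of the diaphysis (dpMSCs) and metaphysis (mpMSCs), where for Efnb1 the interval of the mpMSCs overlapped that of the septoclasts in both libraries, Epha3 in mpMSCs (with an interval that overlapped that of the pericytes in Control), and Ephb2 in chondrocytes and, in Control, fibroblasts, whose interval in Dach1OE overlapped that of the mpMSCs. Epha4 was highest in ECs in Dach1OE, while in Control the intervals of smooth muscle cells, at 17.4 CPM, and ECs, at 11.8 CPM, overlapped.

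**Figure D1:**
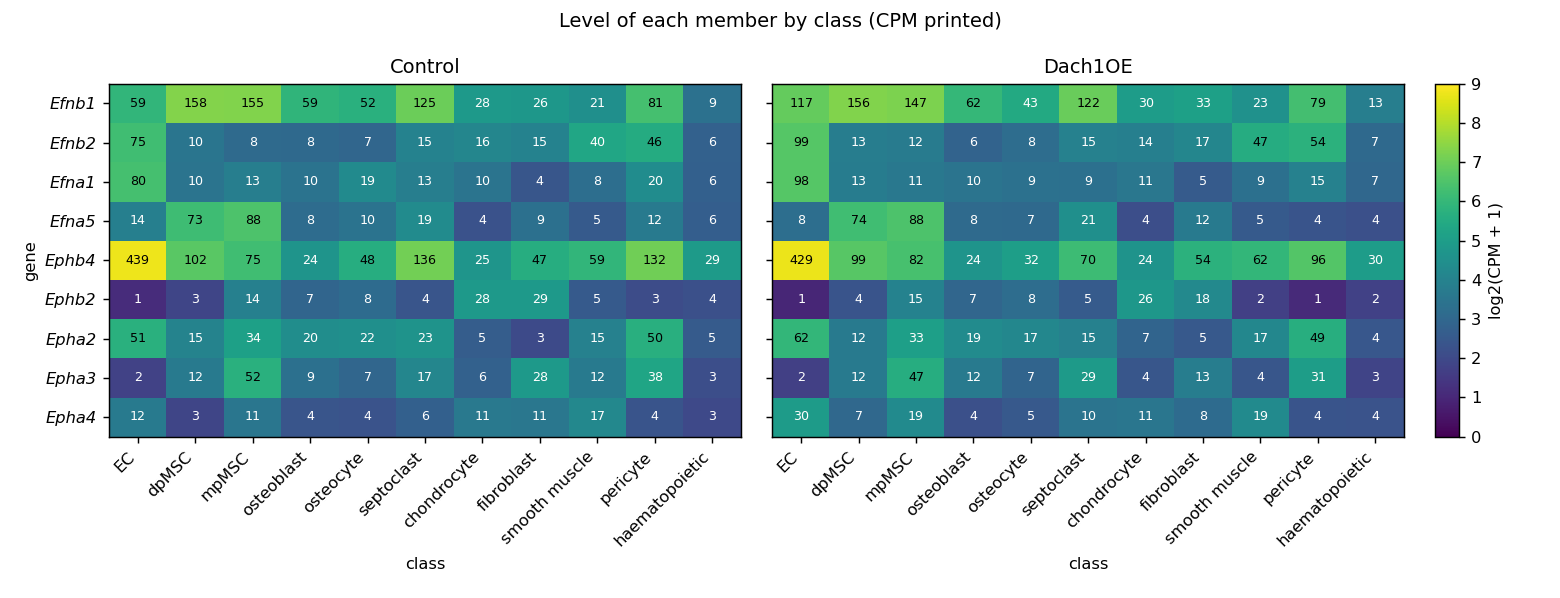
Level of each member in 11 cell classes of the Control library (left) and the Dach1OE library (right); rows are genes, columns classes, the printed number is the CPM of summed UMIs and colour is log2(CPM + 1). In the EC column Efnb1 goes from 59.3 to 117 CPM and Epha4 from 11.8 to 29.5 CPM, while Ephb4 reads 439 and 429 CPM; rows are to be read along the classes, not against each other.

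Efnb2 was the ligand with the steepest pattern among the EC subtypes. In the Control library it stood at 626 CPM (95% interval 573.0 to 683) in arterial ECs (aECs), at 281 CPM in tip-like ECs, at 151 CPM in lymphatic ECs and at 107 CPM in metaphyseal ECs (mpECs). The post-arterial rECs had 93.4 CPM, proliferating ECs (pECs) 54.5 CPM, capillary ECs gated on Scgb3a1 27.1 CPM and sinusoidal bone marrow ECs (bmECs) 19.4 CPM. The arterial level lay above every other subtype, and the interval of the bmECs overlapped only that of the Scgb3a1 capillary ECs. Over the other ECs of the Control library, aECs had a log2 ratio of 3.48 (interval 3.33 to 3.63), from 510 and 1367 UMIs. Efnb2 was not among the markers that set the aEC gate.

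In the Dach1OE library the same order held at the top, but the arterial level was lower. The aECs were at 367 CPM (347 to 388), the tip-like ECs at 283 CPM, the lymphatic ECs at 203 CPM, the mpECs at 94.4 CPM and the rECs at 92.1 CPM. Within aECs the log2 ratio of Dach1OE over Control was -0.77 (-0.92 to -0.62), and the 2 intervals of the level do not overlap. After every cell was thinned to 1000 UMIs, 44.6% of 249 Control aECs (38.3% to 51.0%) and 27.6% of 938 Dach1OE aECs (24.8% to 30.6%) had an Efnb2 UMI, and the unthinned shares were 72.7% and 54.8%. In haematopoietic cells, which served as the background, the thinned shares were 0.749% and 0.964% (unthinned 2.44% and 3.27%) at median depths of 5062 and 4767 UMIs per cell, against 2766 and 2939 UMIs in the aECs. The 8 arterial markers of the gate, summed, were at 5127 CPM in Control aECs and 7171 CPM in Dach1OE aECs, opposite in direction to Efnb2, and the part of marker composition in the Efnb2 value was not tested.

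Over all ECs, Efnb2 was higher in Dach1OE, at 98.8 CPM against 74.6 CPM, a log2 ratio of 0.40 (0.32 to 0.49). The makeup of the ECs also differed between the libraries, and its part in the pooled value was not tested beyond the equal weighting given here. The bmECs were 40.1% of ECs in Control and 6.10% in Dach1OE, and the Scgb3a1 capillary ECs 1.59% and 30.3%. The aECs were 256 of 7291 ECs in Control (3.51%) and 956 of 8231 in Dach1OE (11.6%), and they held 27.2% and 46.0% of all Efnb2 UMIs in ECs. In none of the 8 subtypes was Efnb2 higher in Dach1OE with an interval that left out 0. It was lower in bmECs, at 11.0 against 19.4 CPM (log2 -0.82, -1.63 to -0.11, from 17 and 208 UMIs), and in mpECs, rECs, pECs and tip-like ECs the ratios lay between -0.18 and 0.05 with intervals that included 0. In the ECs of no gated subtype it was at 75.5 against 65.8 CPM (0.20, 0.01 to 0.39). When the 8 subtypes were given equal weight the pooled ratio turned to -0.27. It was 0.18 after thinning to 1000 UMIs, 0.25 with a stricter gate and 0.85 in cells with Y-linked UMIs.

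The mural cells around the vessels also held Efnb2. Pericytes had 45.6 CPM in Control and 54.4 CPM in Dach1OE, and smooth muscle cells 39.6 and 47.0 CPM, with ratios of 0.25 in both and intervals that included 0. In chondrocytes it was at 13.9 CPM in Dach1OE against 16.5 CPM in Control (log2 -0.24, -0.39 to -0.09), and in dpMSCs, mpMSCs and osteoblasts it was at or under 13.1 CPM.

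**Figure D2:**
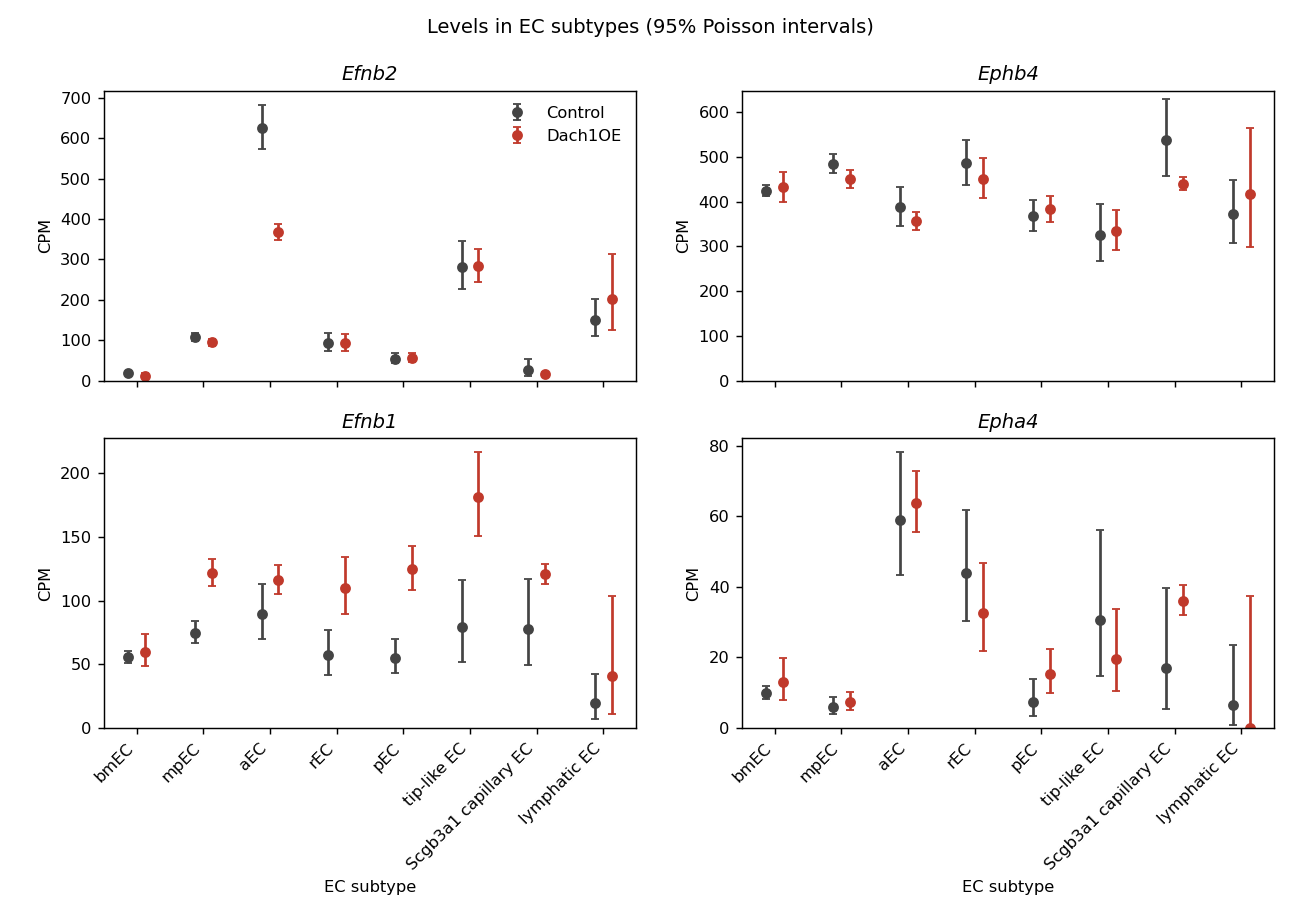
Levels in CPM of Efnb2, Ephb4, Efnb1 and Epha4 in the 8 EC subtypes of the Control (grey) and Dach1OE (red) libraries; points are levels of summed UMIs and bars 95% Poisson intervals, each panel with its own axis from 0. Efnb2 peaks in aECs at 626 and 367 CPM, Ephb4 lies between 327 and 539 CPM everywhere, and Efnb1 is higher in Dach1OE in most subtypes.

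**Figure D3:**
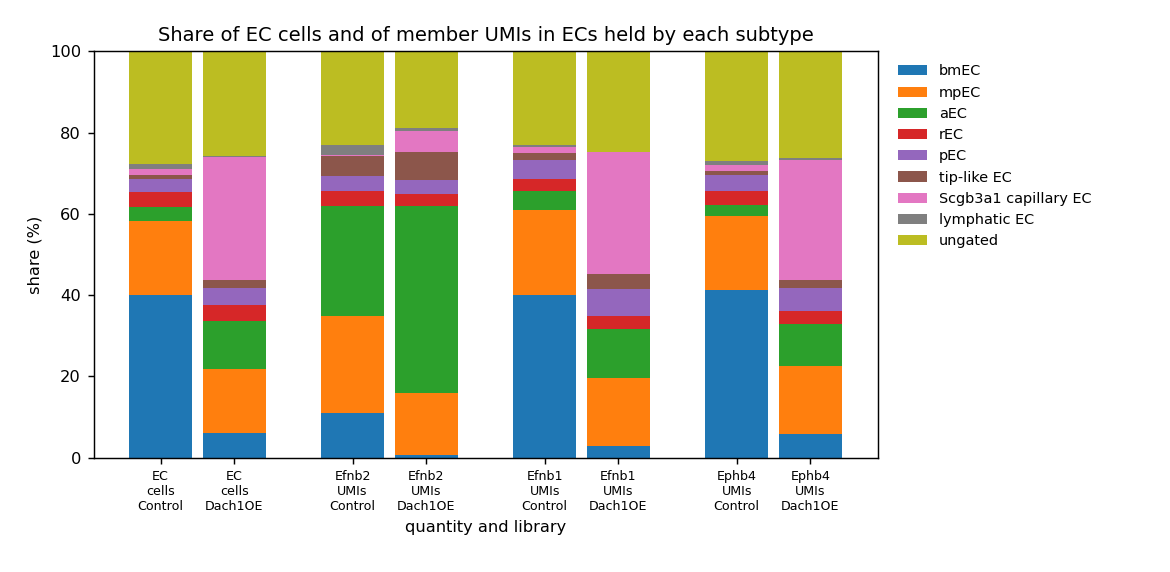
Share (%) of EC cells and of the Efnb2, Efnb1 and Ephb4 UMIs in ECs that each EC subtype holds, as stacked bars for the 2 libraries. The aECs take 3.51% and 11.6% of EC cells but 27.2% and 46.0% of Efnb2 UMIs, whereas the bars of Ephb4 UMIs follow those of the cells closely.

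Efnb1, the X-linked ephrin-B ligand, was higher in Dach1OE ECs than in Control ECs, at 117 CPM (113 to 121) against 59.3 CPM (56.3 to 62.4), a log2 ratio of 0.98 (0.89 to 1.07). It was the member with the largest number of UMIs behind such a difference, 3211 against 1492. Unlike Efnb2, it was higher within most subtypes. In mpECs it was at 121.9 against 74.9 CPM (log2 0.70, 0.50 to 0.91), in rECs at 110.0 against 57.4 CPM (0.94, 0.41 to 1.49), in pECs at 124.8 against 55.3 CPM (1.17, 0.77 to 1.59) and in tip-like ECs at 181 against 79.4 CPM (1.19, 0.57 to 1.86). In aECs, at 116 against 89.6 CPM, and in Scgb3a1 capillary ECs, at 121 against 78.0 CPM, the lower bound of the ratio was just above 0. In bmECs the levels were 60.0 and 55.6 CPM, and the interval of the ratio, -0.22 to 0.43, included 0. The share of thinned ECs with an Efnb1 UMI was 5.84% in Control and 10.7% in Dach1OE (unthinned 16.6% and 27.7%), against 1.06% and 1.26% in haematopoietic cells (unthinned 5.09% and 6.27%). The ECs had a median of 2859 and 2802 UMIs, and thinning left out 154 and 217 of them for being shallower.

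Outside the endothelium Efnb1 differed little between the libraries. It was at 158 and 156 CPM in dpMSCs, at 155 and 147 CPM in mpMSCs, at 125 and 122 CPM in septoclasts and at 80.6 and 79.0 CPM in pericytes, with ratios of -0.02, -0.08, -0.04 and -0.03 and intervals that included 0. Osteoblasts had 58.6 and 62.3 CPM. In haematopoietic cells it was low, at 9.21 and 13.4 CPM, with a ratio of 0.54 (0.27 to 0.82). In Control the dpMSCs and mpMSCs could not be told apart by their intervals, and neither could ECs, osteoblasts and osteocytes. Beside the Efnb1 value in ECs, the 6 dpMSC markers summed to 605 CPM in Control ECs and 883 CPM in Dach1OE ECs, against 57925 and 50622 CPM in dpMSCs. In the same ECs the 7 osteoblast markers summed to 1091 and 1503 CPM, the 8 chondrocyte markers to 998 and 1476 CPM and the 6 pericyte markers to 1417 and 560.0 CPM, the last lower in Dach1OE. The 6 mpMSC markers, at 141 and 86.6 CPM, were also lower in Dach1OE, and the 4 septoclast markers were at 106 and 149 CPM. The dpMSC markers include Cxcl12, whose expression in rECs the paper describes as high. The part of these marker sums in the Efnb1 value was not tested.

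**Figure D4:**
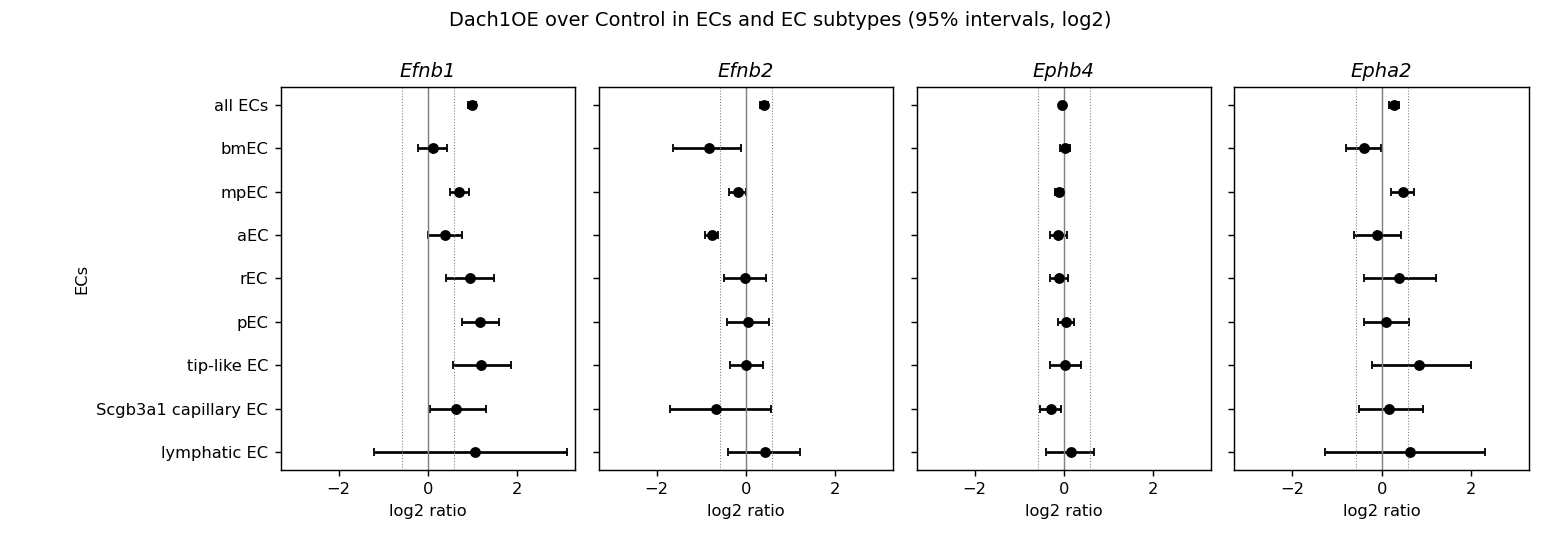
Log2 ratio of Dach1OE over Control for Efnb1, Efnb2, Ephb4 and Epha2 in all ECs and in 8 EC subtypes, with 95% intervals for counting error; the solid line is 0 and dotted lines are 1.5-fold. The Efnb1 points lie right of 0 in all 8 subtypes, from 0.11 in bmECs to 1.19 in tip-like ECs, whereas Efnb2 lies at 0.40 in all ECs but at -0.77 in aECs and -0.82 in bmECs.

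Ephb4, the receptor of ephrin-B2, differed little between the libraries over all ECs. Control ECs had 439 CPM (431 to 448) and Dach1OE ECs 429 CPM (421 to 436), a log2 ratio of -0.04 (-0.07 to 0.00), so a difference of 1.5-fold lies outside the counting interval. Among the Control subtypes it ran from 327 CPM in tip-like ECs and 369 CPM in pECs through 388 CPM in aECs and 424 CPM in bmECs to 485 CPM in mpECs, 486 CPM in rECs and 539 CPM in Scgb3a1 capillary ECs. Against the other ECs of Control, the tip-like ECs (log2 -0.43, -0.72 to -0.16) and pECs (-0.27, -0.40 to -0.13) were lower and the mpECs (0.17, 0.10 to 0.24) and Scgb3a1 capillary ECs (0.30, 0.06 to 0.52) higher. The bmECs were slightly lower (-0.09, -0.14 to -0.03). Among the Dach1OE subtypes the range was narrower, from 334 CPM in tip-like ECs to 451 CPM in mpECs and in rECs. The aECs were below the other ECs by a log2 ratio of -0.19 (-0.35 to -0.02) in Control and -0.30 (-0.38 to -0.21) in Dach1OE, a small difference beside that of Efnb2. It was lower in Dach1OE in Scgb3a1 capillary ECs, at 439.7 CPM (log2 -0.29, -0.52 to -0.06), and slightly so in mpECs (-0.11, -0.20 to -0.02), and no subtype passed 1.5-fold.

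Other classes held far less Ephb4 than the ECs. It was at 136 CPM in septoclasts, 132 CPM in pericytes and 102 CPM in dpMSCs of the Control library, whose intervals for septoclasts and pericytes overlap. It was lower in Dach1OE in septoclasts, at 70.1 CPM (log2 -0.96, -1.31 to -0.61), and in pericytes, at 96.1 CPM (-0.46, -0.75 to -0.16), while dpMSCs were at 99.2 CPM. Chondrocytes, at 24.7 and 23.8 CPM, osteoblasts, at 24.3 and 24.1 CPM, and haematopoietic cells, at 29.1 and 30.4 CPM, had ratios whose intervals included 0. The thinned share of cells with an Ephb4 UMI was 35.4% and 34.3% in ECs and 3.12% and 3.24% in haematopoietic cells, and without thinning 69.3% and 66.1% against 10.1% and 10.7%.

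Efnb2 and Ephb4 transcripts were found in the same arterial cells. Among thinned Control aECs with an Efnb2 UMI, 34 of 111 (30.6%, 22.2% to 40.1%) also had an Ephb4 UMI, against 34.8% (26.9% to 43.4%) of the aECs without one. In Dach1OE aECs the shares were 29.0% of 259 cells (23.5% to 34.9%) and 28.7% of the rest (25.3% to 32.3%). Over all ECs 35.2% of Efnb2-positive and 35.5% of other Control cells had an Ephb4 UMI, and 31.6% and 34.5% in Dach1OE. The intervals overlapped in each case, which does not show that the shares are equal. Without thinning the shares were 67.7% and 41.4% in Control aECs and 71.2% and 50.2% in Dach1OE aECs, but there the Efnb2-positive cells were also the deeper ones, with medians of 3063 against 1916 UMIs in Control and 3639 against 2355 UMIs in Dach1OE. Over the 16 subtype sums the levels of Efnb2 and Ephb4 had a Pearson correlation of -0.54, given as a description because the sums share 2 libraries and their depth.

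Ephb2, a second receptor of ephrin-B ligands, was scarce in ECs, at 1.19 CPM in Control and 0.948 CPM in Dach1OE (30 and 26 UMIs). The log2 ratio was -0.33, with a wide interval that included 0 (-1.15 to 0.48). It was a transcript of the cartilage and connective tissue cells, with 28.2 and 26.4 CPM in chondrocytes, 28.5 and 17.9 CPM in fibroblasts and 14.2 and 14.9 CPM in mpMSCs. The fibroblast level was lower in Dach1OE by a log2 ratio of -0.67 (-1.22 to -0.15).

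Efna1, an A-class ligand, was also highest in aECs, at 201 CPM in Control and 198 CPM in Dach1OE, with a ratio of -0.02 (-0.27 to 0.23) between the libraries. The tip-like ECs followed in Dach1OE at 149.6 CPM, and the Scgb3a1 capillary ECs in Control at 119 CPM, while the other gated subtypes of Control lay between 63.5 and 113 CPM. Over all ECs it was at 79.8 and 97.7 CPM (log2 0.29, 0.21 to 0.38), and with equal weights of the subtypes this ratio was -0.11. In mpECs Efna1 was lower in Dach1OE, at 71.1 against 84.5 CPM (-0.25, -0.47 to -0.02). The other gated subtypes had intervals that included 0. Other classes were at or under 19.5 CPM in Control.

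Efna5 was a ligand of the stroma and low in ECs. The mpMSCs had 88.1 and 87.9 CPM and the dpMSCs 73.2 and 74.3 CPM, so neither differed between the libraries beyond counting error. In ECs it was lower in Dach1OE, at 8.46 against 13.7 CPM (log2 -0.69, -0.94 to -0.45, from 232 and 344 UMIs). The same direction was seen in haematopoietic cells, at 3.54 against 5.53 CPM (-0.64, -1.09 to -0.21), in pericytes (-1.58, -2.84 to -0.35, from 11 and 15 UMIs) and in cells of no gated class (-0.57, -0.86 to -0.27). In these ungated cells Ephb4 (-0.58), Efna1 (-0.54) and Epha2 (-0.39) were lower as well. In osteoblasts (-0.09), osteocytes (-0.39), septoclasts (0.15), chondrocytes (-0.12), fibroblasts (0.39) and smooth muscle cells (-0.01) the intervals of the Efna5 ratio included 0. Among Control ECs Efna5 was highest in aECs, at 24.6 CPM, and in bmECs, at 18.8 CPM, which held 58.7% of its EC UMIs. Within these subtypes it was lower in Dach1OE as well, at 7.07 CPM in aECs (log2 -1.80, -2.71 to -0.86, from 24 and 20 UMIs) and at 8.39 CPM in bmECs (-1.17, -2.10 to -0.36). The Scgb3a1 capillary ECs held 47.0% of the Efna5 UMIs of Dach1OE ECs. They were at 13.7 against 10.2 CPM (0.43, -1.16 to 2.73, from 109 and 3 UMIs).

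Epha2, a receptor of ephrin-A1, was found in ECs at 51.0 CPM in Control and 61.6 CPM in Dach1OE (log2 0.27, 0.17 to 0.38), and in pericytes at 49.6 and 49.2 CPM. In mpECs it was at 73.4 against 53.0 CPM (0.47, 0.22 to 0.72), whereas in bmECs it was at 40.7 against 53.4 CPM (-0.39, -0.79 to -0.02). Neither passed 1.5-fold. Epha3 was nearly absent from ECs, at 2.46 and 2.22 CPM, and was found in mpMSCs at 51.9 and 47.4 CPM and in pericytes at 38.3 and 31.3 CPM. It was lower in Dach1OE in smooth muscle cells, at 4.32 against 11.7 CPM (log2 -1.44, -2.40 to -0.53, from 17 and 29 UMIs), and in fibroblasts, at 13.2 against 27.6 CPM (-1.06, -1.68 to -0.48).

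Epha4, a receptor that binds ligands of both classes, had the largest ratio of the 9 members in ECs, at 29.5 CPM in Dach1OE (27.5 to 31.6) against 11.8 CPM in Control (10.5 to 13.2), a log2 ratio of 1.33 (1.13 to 1.52). In Control it was highest in aECs, at 58.9 CPM, and rECs, at 44.0 CPM, whose intervals overlap, and low in mpECs, at 6.02 CPM, and bmECs, at 9.87 CPM. In aECs the Dach1OE level was 63.6 CPM, a ratio of 0.11 (-0.35 to 0.59), and in rECs it was 32.6 CPM. The ratio had an interval above 0 in the ECs of no gated subtype, at 27.5 against 8.86 CPM (1.64, 1.20 to 2.09), but in none of the 8 gated subtypes. The Scgb3a1 capillary ECs had 36.0 CPM in Dach1OE against 17.0 CPM in Control (5 UMIs only, interval of the ratio -0.15 to 2.72). The Scgb3a1 capillary ECs were 1.59% of Control ECs and 30.3% of Dach1OE ECs and held 1.69% and 35.4% of the Epha4 UMIs. With equal weights of the 8 gated subtypes the ratio was 0.06. This value has no interval, gives small sums the same weight as large ones, and leaves out the ungated ECs. Those held 19.6% of the Epha4 UMIs of Control ECs and 23.1% in Dach1OE. The part of subtype makeup in the ratio over all ECs was not tested further.

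Outside the ECs, Epha4 was at 18.8 against 17.4 CPM in smooth muscle cells and at 10.6 against 11.3 CPM in chondrocytes, where the intervals of the ratio included 0. It was higher in Dach1OE mpMSCs, at 18.6 against 10.5 CPM (0.82, 0.15 to 1.51), and in dpMSCs, at 7.18 against 2.70 CPM (1.41, 0.58 to 2.25, from 28 and 25 UMIs).

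In Dach1OE over Control ECs 2 of the 9 members, Efnb1 and Epha4, were higher by at least 1.5-fold, where 9.48% of 15416 genes were, and 1 of 9, Efna5, was lower, where 8.58% were. The median log2 ratio was 0.27 over the members and 0.03 over all genes tested. Within subtypes 3 of 8 members with enough UMIs passed 1.5-fold in either direction in bmECs (Efnb2, Efna5 and Epha3, 15.3% of all genes), 2 of 8 in mpECs (Efnb1 and Efna5, 12.4%), 2 of 7 in aECs (Efnb2 and Efna5, 24.8%) and 1 of 6 in rECs (Efnb1, 22.8%). The intervals of Epha3 in bmECs, -0.02 to 2.40 from 9 and 26 UMIs, and of Efna5 in mpECs, -1.64 to 0.14 from 19 and 30 UMIs, included 0. With 2-fold in place of 1.5-fold, 1 member, Epha4, passed in all ECs. The share of all genes past 2-fold was not computed, so this count has no background to be read against. Efna5 did not pass 1.5-fold with the stricter gate (-0.58), in cells with Y-linked UMIs (-0.49) or with equal weights of the subtypes (-0.44), and Epha4 did not pass with equal weights.

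Counts were also made in 5 stromal, mural and skeletal classes. In dpMSCs 2 of 9 members passed (Ephb2 and Epha4, from 41 and 53 UMIs over both libraries, 9.54% of all genes), in osteoblasts 0 of 9 (9.91%), in chondrocytes 0 of 9 (11.4%), in smooth muscle cells 2 of 9 (Ephb2 and Epha3, 12.8%) and in pericytes 1 of 7 (Efna5, 16.6%). The intervals of Ephb2 included 0 in dpMSCs (-0.40 to 1.57) and in smooth muscle cells (-2.51 to 0.29). In aECs over the other ECs, 7 of 9 members were higher by at least 1.5-fold in Control, where 19.4% of genes were, and 3 of 9 in Dach1OE (Efnb2, Efna1 and Epha4), where 13.0% were. Of the 7 in Control, Ephb2 and Epha3 rested on 2 and 3 arterial UMIs.

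The other 13 ephrin and Eph genes were mostly low in ECs. Of the 9 with enough UMIs in ECs, 2 were higher (Efna3 and Ephb1) and 1 lower (Efna2) in Dach1OE at 1.5-fold, where 9.48% and 8.58% of all genes were. Efna4 lay at the limit, at 3.17 against 2.11 CPM, and fell just under it with the pseudocount of 0.5 UMIs used for calls. Ephb1, another ephrin-B receptor, was at 58.7 against 30.6 CPM (log2 0.94, 0.82 to 1.07), and its pattern in Control ran from 155.7 CPM in tip-like ECs to 5.03 CPM in bmECs. It was higher in rECs, at 65.1 against 33.4 CPM, in pECs, at 77.1 against 35.0 CPM, in bmECs, at 16.8 against 5.03 CPM (1.74, 1.004 to 2.438), and in Scgb3a1 capillary ECs, at 45.4 against 10.2 CPM (2.16, 0.60 to 4.44, from 362 and 3 UMIs), but lower in aECs, at 19.4 against 56.5 CPM (-1.54, -2.10 to -0.96). Efna3 was at 2.59 against 0.914 CPM and Efna2 at 0.729 against 1.87 CPM.

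Of 41 genes listed for Eph signalling, 40 had enough UMIs in ECs, and 3 were higher and 2 lower in Dach1OE at 1.5-fold, a count near or under that of all genes (9.48% and 8.58%), with a median log2 ratio of -0.05. Tiam1, a nucleotide exchange factor that binds ephrins and Eph receptors, was at 44.2 against 6.72 CPM (log2 2.72, 2.49 to 2.96), and in mpECs at 89.9 against 18.3 CPM (2.30, 1.94 to 2.67). Dab2, an endocytic adaptor, was at 299 against 557 CPM (-0.90, -0.94 to -0.86), and Dab1, an adaptor, at 10.7 against 4.02 CPM (1.41, 1.08 to 1.75). The Dab1 interval included 0 in bmECs (0.13, -1.40 to 1.38), mpECs (0.77, -0.05 to 1.64) and aECs (0.75, -1.37 to 3.93). By subtype, Dab2 had a ratio of -0.05 (-0.15 to 0.05) in bmECs, where it was at 610 and 632 CPM, -0.58 (-0.68 to -0.48) in mpECs and -1.40 (-1.65 to -1.14) in aECs. In aECs 9 of 33 passed in either direction, near the 24.8% of all genes, among them Fyn, a Src-family kinase, at 152 against 307 CPM (-1.02, -1.24 to -0.79), and Lyn, a related kinase, at 40.9 against 89.6 CPM (-1.13). Itsn2 (-0.60, -0.87 to -0.32) and Chn1 (-0.74, -1.47 to 0.05) were also called lower. In the other direction, Kalrn was at 119 against 74.9 CPM (0.66, 0.27 to 1.08), Tiam1 had 91 UMIs in Dach1OE and 0 in Control, for which no ratio is given, and Grip1 had 20 and 2 UMIs, with an interval that included 0.

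Within the Dach1OE library, ECs with and without a Dach1 UMI were compared after thinning to 1000 UMIs, a comparison of cells of 1 library and not of animals. Efnb1 was at 150.3 CPM in 1470 ECs with Dach1 and 113 CPM in 6544 others (log2 0.42, 0.19 to 0.64). Within subtypes the interval lay above 0 in mpECs (0.86, 0.23 to 1.44) and in bmECs (7 and 30 UMIs) only, and it included 0 in Scgb3a1 capillary ECs (0.08, -0.32 to 0.47), which held 601 of the 1470 cells, and in aECs (0.26, -0.44 to 0.91). Efnb2 was at 66.7 against 103.9 CPM (-0.64, -0.96 to -0.33), and within aECs at 262 against 396 CPM (-0.60, -1.06 to -0.16). Ephb4 was at 443 and 434 CPM (0.03, -0.10 to 0.15). For the values over all ECs the makeup of the 2 sets by subtype was not equalized. Dach1 was at 210.5 CPM in Dach1OE ECs, so a cell that expresses it can hold no Dach1 UMI after thinning to 1000 UMIs. The set without a Dach1 UMI therefore also holds cells that express it, which blurs any difference between the sets. Overlapping or similar values do not show that the sets are equal.

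Within each library, Xist-positive cells and cells holding UMIs of Y-linked genes stand for the female and the male mouse of each library, so that mouse and sex cannot be told apart. Of the ECs, 3134 of 7291 in Control and 3732 of 8231 in Dach1OE were assigned to neither. Efnb1 in ECs was at 52.8 and 113 CPM in cells with Xist (log2 1.10, 0.94 to 1.26) and at 69.0 and 117 CPM in cells with Y-linked UMIs (0.76, 0.60 to 0.92), in the order Control and Dach1OE. The Dach1OE value was higher in both sexes. Epha4 was higher in both, with ratios of 1.37 and 1.28, and for Ephb4 the ratios were -0.03 and -0.05 with intervals that included 0. Within aECs the Efnb1 ratios were 0.36 (-0.31 to 1.09) and -0.04 (-0.75 to 0.74). Both intervals include 0 and also the pooled aEC ratio of 0.37, so the split does not resolve the small pooled difference. The Control values there rest on 78 and 44 aECs, and 134 of 256 were assigned to neither sex. Efnb2 in aECs was lower in both, at 553 and 349 CPM in cells with Xist (-0.66, -0.94 to -0.38) and at 696 and 403 CPM in cells with Y-linked UMIs (-0.79, -1.11 to -0.46), in the same order. The pooled Efnb2 ratio in ECs was 0.33 (0.18 to 0.47) in the former and 0.85 (0.68 to 1.03) in the latter, and that of Epha2 was 0.04 (-0.15 to 0.22) in the former and 0.48 (0.28 to 0.67) in the latter. The difference between the sexes was not tested.

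Outside the ECs, Ephb4 in pericytes was lower in Dach1OE in both sexes, with ratios of -0.51 (-0.98 to -0.03) in cells with Xist and -0.82 (-1.49 to -0.13) in cells with Y-linked UMIs. In septoclasts its ratios were -0.45 (-1.21 to 0.30) and -1.08 (-1.64 to -0.52). Efnb1 in septoclasts, whose pooled ratio was near 0, was at 118 against 175 CPM in cells with Xist (-0.57, -1.11 to -0.03) and at 121 against 80.3 CPM in cells with Y-linked UMIs (0.59, -0.02 to 1.22). The septoclast values rest on 62 to 132 cells per library and sex.

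**Figure D5:**
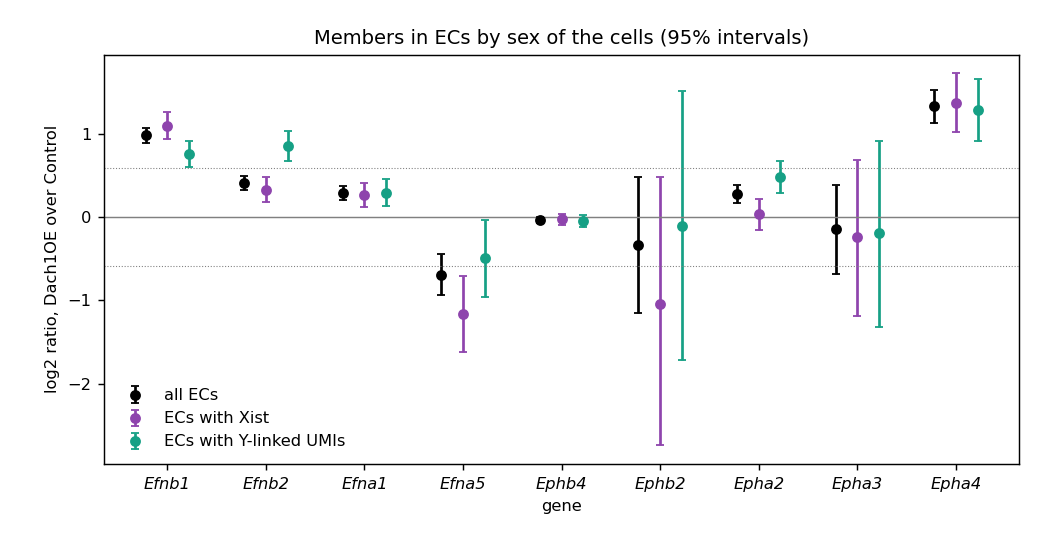
Log2 ratio of Dach1OE over Control in ECs for the 9 members, over all ECs (black), ECs with Xist (purple) and ECs with Y-linked UMIs (green), with 95% intervals for counting error; dotted lines mark 1.5-fold. Efnb1 and Epha4 lie above 1.5-fold in all 3, Ephb4 lies at 0, and Efnb2 reads 0.33 in cells with Xist and 0.85 in cells with Y-linked UMIs.

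The genes most alike each member were ranked by Pearson correlation of log2(CPM + 10) over the 22 class sums, which share libraries and depth. For Ephb4 they were B4galt4, Tbkbp1 and Adcy4 (0.98 to 0.97), for Efna1 Arhgef5, Gipc3 and Rbp7 (0.96 to 0.93), and for Efnb2 Sox13, Galnt18 and Vsig2 (0.93 to 0.91). Efna5 was nearest to Fgfr2, Plekhm3 and Man2b2 (0.96 to 0.95), Ephb2 to Fmod, Ugdh and Has2 (0.94 to 0.91) and Efnb1 to Rai14, Rgs3 and Mxd4 (0.92). Epha2 (Myo10, Ptprk and L3mbtl3), Epha3 (Mfap2, Lrrc17 and 1110051M20Rik) and Epha4 (Id2, Fam57a and Plpp2) had weaker nearest genes, from 0.87 to 0.72. Over the 16 EC subtype sums Efnb2 was nearest to Rtn4, Col18a1, Rexo2, Rab11fip5 and Unc5b (0.98 to 0.92), and Ephb4 to Mrrf, Lrp5, Mettl21a, Slco2a1 and Sema6a (0.86 to 0.82).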

How the data were processed

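Cells of femur and tibia were measured in 1 library per group on the BD Rhapsody system. Per the file headers, version 1.11 of the BD Rhapsody WTA pipeline (the methods state another) gave the counts that the authors deposited, on GRCm38 with the annotation GENCODE vM19. Intronic reads were included, and UMIs were corrected by RSEC, which merges identifiers set apart by sequencing errors. The submitters' processing notes name mm10. The counts had no normalization. From them, cells with 500 to 6000 genes and under 25% mitochondrial UMIs were kept. The mice per library, 2, come from the methods.

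Cells were gated on markers of 13 classes and 8 EC subtypes by mean z-scores (lead 0.3 over the next class or subtype, at least 2 markers seen). The floor of the score was 0.5 for classes and 0.2 for EC subtypes. For haematopoietic cells the score was the mean of the highest 3 markers. Gates left 14.5% and 13.4% of cells and 27.7% and 25.7% of ECs unassigned. Doublets were marked by Scrublet in scanpy 1.11.5 and left in for the main values. Levels are summed RSEC UMIs as CPM with exact Poisson intervals, ratios have exact binomial intervals, and shares exact Clopper-Pearson intervals, all covering counting error only. Of these, only the ratio intervals were tested on simulated data. The simulated counts were Poisson draws, which hold no error beyond counting. Calls over all genes used a pseudocount of 0.5 UMIs. Total UMIs were 143986818 (Control) and 166999989 (Dach1OE). TMM came from edgeR 4.0.16. Named were all 9 members, list genes past 1.5-fold with at least 50 UMIs (at most 8), and the 3 or 5 most alike genes. Outside this rule, Grip1 in aECs, with fewer UMIs, and Efna4, at the limit of the call, were also named. For the Eph signalling list the rule was applied in all ECs and in aECs, and 1 gene that it names in both is not reported here. The members and lists were chosen with earlier results of these data known.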

Additional observations from a re-analysis of the deposited data

Results flagged for a closer look

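Epha3 differed between the libraries in opposite directions in different classes. It was higher in Dach1OE septoclasts, with a log2 ratio of 0.78 (0.00 to 1.60) from 51 against 20 UMIs, and lower in fibroblasts, with -1.06, and in smooth muscle cells, with -1.44. Short of 1.5-fold, Epha3 was also higher in Dach1OE osteoblasts (0.37, 0.05 to 0.69, from 238 and 124 UMIs). In chondrocytes it was lower (-0.44, -0.70 to -0.18, from 243 and 250 UMIs). The difference between the classes was not tested, and each value rests on 1 library per group.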

How the results depend on the processing

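No paired analysis was possible because each group has 1 library and no test was run. Efnb1 in ECs was 1.10 in cells with Xist, 0.76 in cells with Y-linked UMIs and 0.78 with equal weights of the EC subtypes. Efnb2 in ECs was 0.18 after thinning, 0.25 with the stricter gate, 0.85 in cells with Y-linked UMIs and turned to -0.27 with equal weights. Ephb4 in ECs was -0.0803 after thinning and -0.0788 with the stricter gate. Efnb2 in aECs was -0.59 when no lead of the EC gate was asked for. Efnb2 in Control aECs over the other ECs was 3.33 after thinning, 3.67 with clusters in place of gates, 3.18 with the stricter gate, 3.13 in cells with Xist, 4.08 in cells with Y-linked UMIs and 2.58 with equal weights. At 2-fold, 1 member passed in ECs in place of 3 at 1.5-fold (Efnb1, Efna5 and Epha4), and no share of all genes was computed at 2-fold. Efna5 was no longer called with the stricter gate (-0.58), in cells with Y-linked UMIs (-0.49, where Efnb2 was called) or with equal weights (-0.44, where Efnb1, Ephb2 and Epha3 were called and Epha4 was not), and thinning added Epha3. The call with equal weights asked for no minimum of UMIs, and its Ephb2 and Epha3 values rest on few UMIs per subtype. In lymphatic ECs Epha3 had 1 UMI in Dach1OE and 0 in Control, and its ratio over all ECs was -0.15 (-0.68 to 0.39). The lead lowered to 0 and the removal of cell indices that both libraries hold were chosen after seeing the data. TMM scaling, raw UMIs, the filters on genes and mitochondrial UMIs, and Scrublet left these values within their intervals. Genes with under 100 UMIs per library, such as Ephb2 and Epha3 in ECs, and the 74 tip-like ECs of Control and 28 lymphatic ECs of Dach1OE, limit what can be resolved.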
